A study of Homo sapiens with 8 samples.

Results

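The 8 genes described here mark squamous and basal epithelium and are not keratins. They were followed in LK2 cells, an established line from a human squamous lung carcinoma, with and without added DNp63, the p63 isoform class made without the N-terminal transactivation domain. CALML3, CLCA2, TRIM29, SERPINB5, FAT2, BNC1, SFN and GJB5 were taken by symbol from a table of 26760 genes, and all 8 were found there. RNA was sequenced in 8 libraries in 4 groups of 2. All cells were LK2 cells carrying a vector and grown in the same serum-containing medium. The GFP group carried pLEX_306-GFP (replicate 1) or pLEX_307-GFP (replicate 2), and the constitutive DNp63 group carried pLEX_306-DNp63 (replicate 1) or pLEX_307-DNp63 (replicate 2), so each of these libraries is the only one of its vector. The inducible groups carried pLIX_403-DNp63 and were kept for 6 days without doxycycline (uninduced) or with 2 µg per ml of it (induced). No library of cells given doxycycline without a DNp63 vector was analysed here, so the drug and the induced DNp63 cannot be told apart. Whether the libraries of a group are separate cultures is not stated in the labels. The p-values therefore measure only the spread between these libraries, which may be technical. That spread was fitted over all 4 groups together, although replicates differed more in the constitutive system. The chi-square between replicates over its degrees of freedom was 18.0 (GFP), 25.6 (DNp63), 3.91 (uninduced) and 5.38 (induced). Tests of the induced effect thus also draw on the wider spread of the GFP and DNp63 libraries.

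The proteins of these genes belong to stratified epithelia such as skin and to the basal cells of the airway. There p63 is the master regulator that keeps basal cells in the epithelial, proliferative state, and pathologists use p63 and several of its targets to recognise squamous lung tumours. CALML3 is a calcium-binding protein related to calmodulin, SFN is the epithelial 14-3-3 protein sigma, and TRIM29 is a tripartite motif protein of basal and squamous cells. CLCA2 is a calcium-activated chloride channel regulator, FAT2 a giant protocadherin, GJB5 a gap junction connexin, SERPINB5 the non-inhibitory serpin maspin, and BNC1 the zinc finger factor basonuclin of basal keratinocytes.

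The RefSeq table (GRCh38.p14) held promoters for 6 of the 8 genes, and TRIM29 and GJB5 were not matched. The 250 bases before the annotated start are shown for CALML3 and CLCA2, whose rises were the steepest, and for SFN and SERPINB5. In the control cells SFN had 362 counts with GFP and 946 uninduced. SERPINB5 had only 16 and 6 there, fewer than the 22 and 56 of CALML3. Capitals mark matches to TGANTCA, which reads the same on both strands. It is a loose form of the AP-1 motif with any middle base, where the motif itself has C or G. The windows are chr10:5524711-5524960, chr1:86423921-86424170, chr1:26862899-26863148 and chr18:63476708-63476957, all on the plus strand.
CALML3: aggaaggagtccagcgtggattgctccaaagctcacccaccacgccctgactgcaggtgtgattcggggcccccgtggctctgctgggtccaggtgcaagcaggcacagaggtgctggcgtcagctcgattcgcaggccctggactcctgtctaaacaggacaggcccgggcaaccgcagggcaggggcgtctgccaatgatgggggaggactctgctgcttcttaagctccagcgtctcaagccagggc
CLCA2: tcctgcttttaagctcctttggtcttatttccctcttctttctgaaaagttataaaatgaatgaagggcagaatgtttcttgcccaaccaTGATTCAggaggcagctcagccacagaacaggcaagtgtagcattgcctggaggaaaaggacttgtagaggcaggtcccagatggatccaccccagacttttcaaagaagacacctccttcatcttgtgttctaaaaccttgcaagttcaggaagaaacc
SFN: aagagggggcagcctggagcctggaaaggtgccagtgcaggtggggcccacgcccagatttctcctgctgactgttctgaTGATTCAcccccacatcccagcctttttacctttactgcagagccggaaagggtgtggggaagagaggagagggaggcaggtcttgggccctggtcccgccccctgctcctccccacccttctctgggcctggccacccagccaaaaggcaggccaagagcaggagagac
SERPINB5: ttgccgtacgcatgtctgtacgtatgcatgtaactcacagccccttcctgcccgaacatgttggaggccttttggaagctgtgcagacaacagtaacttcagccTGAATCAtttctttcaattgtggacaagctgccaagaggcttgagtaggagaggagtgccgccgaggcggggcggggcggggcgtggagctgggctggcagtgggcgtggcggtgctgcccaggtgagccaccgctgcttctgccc
The letters TGANTCA occurred in 3 of the 6 windows, those of CLCA2, SFN and SERPINB5, against 6.57% of 35116 promoter windows of the same length. The matches read TGATTCA in CLCA2 and SFN and TGAATCA in SERPINB5, so none had the C or G of the AP-1 motif. They lay 153, 163 and 139 bases before the start of the respective gene. The p53-family half-site, a motif that p63 can also bind, was searched only as an exact match to RRRCWWGYYY. In it R is A or G, W is A or T and Y is C or T. There was no exact match in the 6 windows, and 5.57% of all windows held at least 1. Near matches and other forms of the motif were not searched. TATAAA, searched on both strands, was found in CLCA2 alone of the 6, 194 bases before the start, and in 10.7% of all windows. GGGCGG, searched on both strands, had 7 matches in the BNC1 window, 2 in SERPINB5 and 1 in SFN, and at least 1 match in 42.6% of all windows. A GC content of 81.6% set the BNC1 window apart from the 44.8% of CLCA2, with a median of 58% over all windows. These letters are a description, and binding was not measured.

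The level of the added gene was as labelled in every library. TP63 was at 0.739 and 1.91 CPM (counts scaled to a common library size) in the GFP libraries and at 1850.1 and 3816 CPM with constitutive DNp63. It was at 12.7 and 14.8 CPM uninduced and at 412 and 422 CPM induced. The uninduced libraries lay above the GFP libraries by a log2 difference of 3.23 ± 0.50 that did not pass the edgeR test (adjusted p = 0.165) but passed with DESeq2 (1.37e-05). Library totals ran from 2758158 to 10372248 counts, so that 3 counts in a library stood for 0.292 to 1.11 CPM. Of the markers of LK2 as a squamous line, SOX2 (278 and 517 CPM) and DSG3 (15.5 and 5.51 CPM) were present in the GFP libraries, KRT5 was at 0.369 and 0.635 CPM, and KRT14 had no count in any library. SOX2, a transcription factor of squamous lung tumours, fell to 68.3 and 96.4 CPM with constitutive DNp63 (log2 fold change −2.27 ± 0.30, edgeR adjusted p = 0.00125), against the direction of the markers below. Its induced value of −0.85 ± 0.28 did not pass (0.464), but passed in the fit on the inducible libraries alone (5.65e-07) and with no filter (0.0125). Of 7 fibroblast, 10 immune and endothelial and 9 other lung epithelial markers, 2, 4 and 4 had no count anywhere, and their summed levels reached at most 30.8, 4.87 and 18.0 CPM in any library. Among them only the endothelial receptor gene KDR was called in either system, lower with constitutive DNp63 (edgeR adjusted p = 0.0429). Its reads summed to 14 over the GFP group and 0 over the constitutive group. The call was lost with any 1 library left out, at log2 values of −6.81 to −5.69. KDR passed the filter of 2.00 CPM in control libraries alone (GFP replicate 2 at 2.33 CPM, uninduced at 2.21 and 2.14 CPM). A lower level with DNp63 was thus built into its entry, and the call adds no support for a fall.

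Of the 8 genes, 7 entered the test across 12303 genes. GJB5 did not, and FAT2 and BNC1 did so only through their constitutive DNp63 libraries, the only libraries in which they passed the filter of 2.00 CPM, and had to be higher there to enter. CLCA2 likewise entered through its 4 DNp63 libraries alone. The calls of these 3 genes add no support to the counts below. With constitutive DNp63, CALML3, CLCA2, TRIM29, FAT2 and SFN rose by the edgeR quasi-likelihood test (adjusted p below 0.05), 5 of 8 genes, where 4.17% of all tested genes were called higher. None of the 8 fell. In induced cells CALML3 and TRIM29 rose, 2 of 8, where 0.236% of all tested genes were called higher. The number of calls depended on the fit: all libraries together gave 1004 constitutive and 35 induced calls, each system alone 275 and 771. Averaged over both systems, CALML3, CLCA2, TRIM29 and SFN were called higher, with a background of 3.26%. In bulk RNA a higher level in each cell cannot be told apart from more cells that express the gene.

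**Figure D1:**
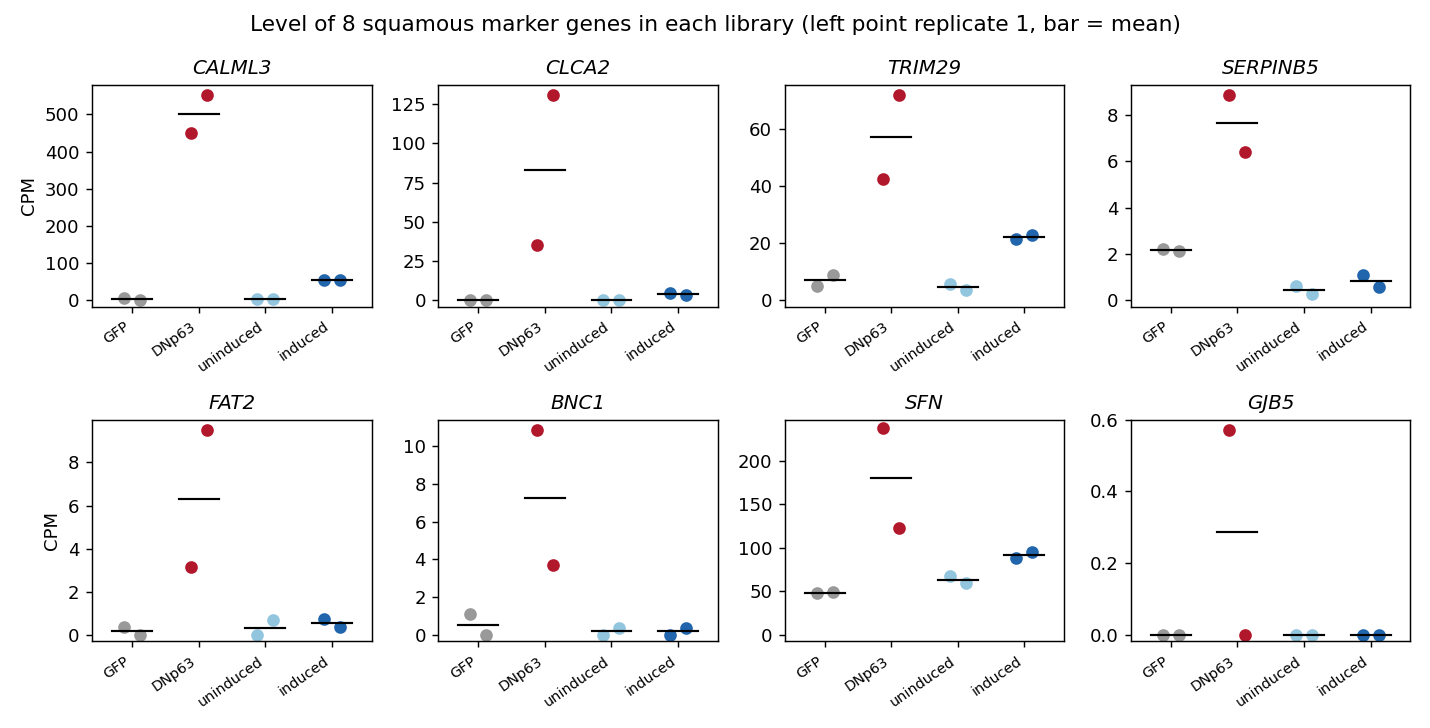
Level of each of the 8 marker genes in CPM (vertical axes, each with its own scale) in the 4 groups; points are single libraries, replicate 1 on the left, and bars are means of 2. CALML3 reached 451 and 552 CPM with constitutive DNp63 against 55.1 and 55.9 CPM induced, while GJB5 had counts in 1 library only.

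CALML3 rose in both systems. The GFP libraries held 5.54 and 1.48 CPM, the constitutive DNp63 libraries 451 and 552 CPM. The uninduced libraries held 4.43 and 3.31 CPM, the induced libraries 55.1 and 55.9 CPM. Every DNp63 library was above every control library, and the induced libraries lay between the controls and the constitutive ones. Of all tested genes, 22.4% had both constitutive libraries above both GFP libraries and 22.9% both induced above both uninduced libraries. The log2 fold change was 7.33 ± 0.41 (SE, n = 2 per group) with constitutive DNp63 (edgeR adjusted p = 6.63e-06), the 23rd largest rise among 12303 genes, and 3.88 ± 0.36 when induced (0.0012). The constitutive value was 8.38 without GFP replicate 1 and 6.48 without GFP replicate 2, and was called in both. The induced call was lost without uninduced replicate 2 (adjusted p = 0.1). The induced effect was smaller than the constitutive effect (log2 difference, induced minus constitutive, −3.45 ± 0.55, edgeR adjusted p = 0.0301), the single call among the 8 genes in this comparison, where 0.252% of tested genes were called lower. That call was lost without either uninduced library (0.17 and 0.174) or either induced library (0.242 and 0.176). The antisense gene CALML3-AS1, which overlaps CALML3, had 4 counts with GFP, 105 with constitutive DNp63, 2 uninduced and 13 induced. No source used here gives the strand setting of the counting, so reads of this pair cannot be told apart. The antisense gene held 124 counts in all against 5230 for CALML3. Of the 38-base stretches of the CALML3 transcript in GENCODE 29, the length of the reads, 24.9% recurred in CALML3-AS1 or another antisense gene of the locus, and none in the calmodulin genes.

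CLCA2 was almost undetected in control cells and rose with constitutive DNp63. It had 0 and 1 counts with GFP, and 124 and 674 with constitutive DNp63, or 35.4 and 131 CPM. It had no count uninduced, and 36 and 17 counts induced, or 4.45 and 3.34 CPM. Both DNp63 groups were above all 4 control libraries, which together held 1 read. The ratio of constitutive DNp63 to GFP was 685 (95% exact counting interval 123 to 27086), and the constitutive effect passed the edgeR test (adjusted p = 0.00068). Against a floor of 3 counts over the uninduced group, CLCA2 was at least 20.4-fold higher in induced cells. The edgeR test of that induced effect gave an adjusted p of 0.128, with 0.000805 by DESeq2 and 0.00227 to 1 with 1 library left out. It was passed without DNp63 replicate 1 (0.00227) or replicate 2 (0.00684).

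TRIM29 rose in both systems. It stood at 5.17 and 8.68 CPM in GFP cells and at 42.6 and 72.0 CPM in constitutive DNp63 cells. Uninduced it stood at 5.84 and 3.60 CPM, and induced at 21.6 and 22.8 CPM. The DNp63 libraries again lay above all controls without overlap. Its log2 fold change was 3.003 ± 0.37 with constitutive DNp63 (edgeR adjusted p = 0.000915) and 2.28 ± 0.37 when induced (0.0334), and the difference between the systems, −0.72 ± 0.52, did not pass (0.638). The induced call was lost without any 1 of the 4 inducible libraries, with adjusted p values of 0.24 (uninduced replicate 1), 0.868 (uninduced replicate 2), 0.334 (induced replicate 1) and 0.278 (induced replicate 2) at log2 values of 1.92 to 2.62. No 38-base stretch of its 21 annotated transcripts recurred in another gene.

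SFN was already expressed in the control cells and rose with constitutive DNp63. Its level was 48.4 and 48.9 CPM in GFP cells and 238 and 123 CPM in constitutive DNp63 cells. Its level was 67.6 and 59.3 CPM in uninduced and 87.9 and 95.8 CPM in induced cells. Each DNp63 group lay above its own controls, but by much smaller factors than for CALML3 or CLCA2. The log2 fold change was 1.89 ± 0.28 with constitutive DNp63 (edgeR adjusted p = 0.00291) and 0.54 ± 0.27 when induced, which did not pass (0.911). Fitted on the inducible libraries alone, the induced value of 0.54 passed (0.00878). Without DNp63 replicate 1 the constitutive value was 1.34, and the call was made whichever library was omitted (adjusted p of at most 0.0292).

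SERPINB5, FAT2 and BNC1 were counted far less often, with 98, 76 and 66 reads over all libraries. SERPINB5 stood at 2.22 and 2.12 CPM in GFP cells and at 8.86 and 6.40 CPM in constitutive DNp63 cells. It stood at 0.604 and 0.292 CPM in uninduced and at 1.11 and 0.590 CPM in induced cells. The constitutive libraries were highest, while the GFP libraries lay above the induced ones. Neither its constitutive log2 value of 1.80 ± 0.57 (edgeR adjusted p = 0.0801, and 0.0459 without the legacy estimates of the spread) nor its induced value of 1.08 ± 0.75 (0.958) passed. The 2 controls differed by −2.34 ± 0.72 (uninduced minus GFP, log2), which did not pass either (adjusted p = 0.368).

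FAT2 had 1 and 0 counts with GFP and 11 and 49 with constitutive DNp63, a ratio of 51.5 (95% counting interval 8.90 to 2067). It had 0 and 7 counts uninduced and 6 and 2 induced, a ratio of 1.32 (0.419 to 4.28), so those groups overlapped. The constitutive effect passed the edgeR test at an adjusted p of 0.0306. The call was lost without GFP replicate 1 (0.0572) or 2 (0.229), DNp63 replicate 2 (0.123) or induced replicate 1 (0.0635) or 2 (0.0634), and in the fit on the constitutive system alone (0.0548). BNC1 had 3 and 0 counts with GFP and 38 and 19 with constitutive DNp63, a ratio of 16.3 (5.31 to 81.4), with an edgeR adjusted p of 0.0721. That value was 0.0434 without DNp63 replicate 2, 0.00131 with no filter, 0.0215 with a replicate block and 0.0372 without the legacy estimates. With 0 and 4 counts uninduced and 0 and 2 induced, no induced change of BNC1 was detectable at this depth. GJB5 had 2 counts in all, both in constitutive DNp63 replicate 1. The 0 counts of the other 7 libraries allow up to 0.292 to 1.11 CPM each, counting error only, so GJB5 was not detected in the inducible system.

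**Figure D2:**
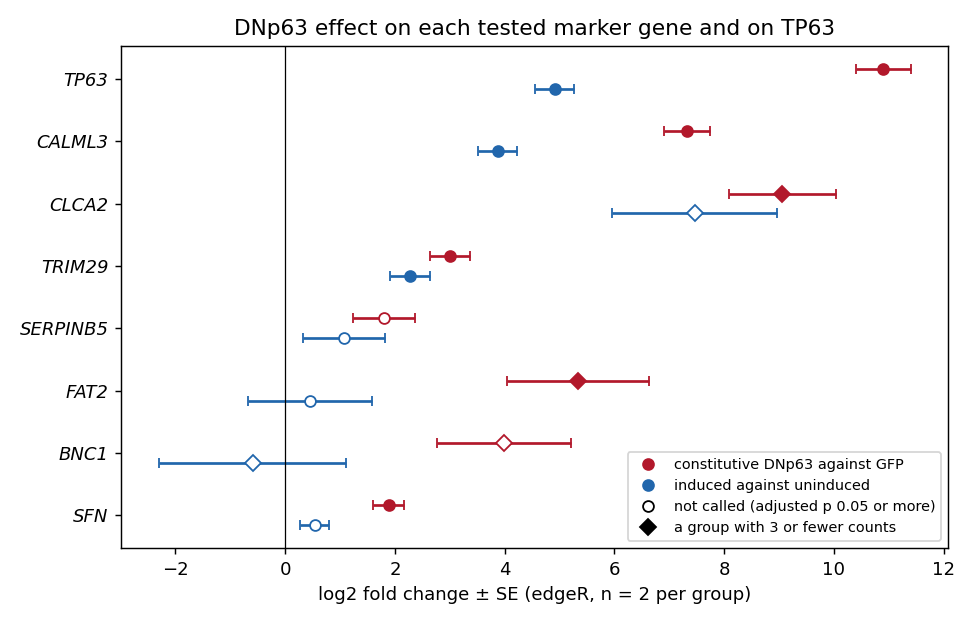
Log2 fold change with its SE (horizontal axis) of TP63 and the 7 tested marker genes, constitutive DNp63 against GFP in red and induced against uninduced in blue; open symbols did not pass the test, and diamonds had 3 or fewer counts in a group, where the fitted value depends on the prior count. CALML3 and TRIM29 have filled symbols in both systems, and BNC1 is the only gene with a fitted induced value below 0 (−0.59).

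Ordered by mean level, the groups ran from controls to induced to constitutive DNp63 for CALML3, CLCA2, TRIM29, FAT2 and SFN. For FAT2 the order rested on few counts, and its uninduced (0 and 0.681 CPM) and induced libraries (0.741 and 0.393 CPM) overlapped. For SERPINB5 and BNC1 the GFP mean lay above the induced mean (2.17 against 0.851 CPM and 0.554 against 0.197 CPM). The GFP and uninduced levels passed the test of a difference for none of the 7 tested genes (edgeR adjusted p of 0.368 to 0.933, with SERPINB5 alone at an unadjusted p below 0.05), where 0.00813% of all tested genes, 1 gene, were called. Of the 5 genes with induced cells next above the controls, only CALML3 was called between induced cells and the higher control (adjusted p = 0.0012). For TRIM29 the induced level was 1.63 ± 0.37 above GFP on the log2 scale (adjusted p = 0.0756). Constitutive DNp63 cells were higher than induced cells for all 7 tested genes by the edgeR test. Of all tested genes, 5.84% were called in that direction. For FAT2 and BNC1, which passed the filter only in the constitutive DNp63 libraries, this direction was fixed by entry and adds no support. The log2 differences were 3.18 ± 0.31 for CALML3, 4.39 ± 0.59 for CLCA2, 1.37 ± 0.33 for TRIM29 and 0.97 ± 0.27 for SFN, and 3.07, 3.39 and 5.31 for SERPINB5, FAT2 and BNC1. TP63 itself was higher by 2.76 ± 0.32 in the same comparison, a call lost without induced replicate 1 (0.0542).

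Only CALML3 kept this call with every library left out (adjusted p of at most 0.0466). Without induced replicate 1 or 2, the other 6 genes were not called, with adjusted p values of 0.0814 to 0.272 and 0.0679 to 0.194. The calls of BNC1 (0.0982) and SFN (0.196; log2 difference 0.42) were lost without DNp63 replicate 1. Those of TRIM29 (0.0782) and FAT2 (0.208) were lost without DNp63 replicate 2. Those of FAT2 (0.0619 and 0.0613) and SFN (0.089 and 0.0892) were lost without uninduced replicates 1 or 2, and BNC1 was not called by DESeq2 (0.137). As a share of the constitutive mean, the induced mean of TP63 was 14.7%. The same share was 50.9% for SFN, 38.8% for TRIM29, 11.1% for CALML3 and 4.69% for CLCA2. On few counts it was 11.2% for SERPINB5, 8.97% for FAT2 and 2.71% for BNC1. These are shares of the whole level and not of the rise. For SFN they include a control level of 48.7 CPM with GFP and 63.5 CPM uninduced.

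The constitutive DNp63 libraries carried different vectors, and the markers differed between these libraries in both directions. TP63 was 2.06 times as high in replicate 2 as in replicate 1 (95% counting interval 2.01 to 2.12). CLCA2 was 3.69 times (3.04 to 4.51) and FAT2 3.02 times (1.55 to 6.45) as high in replicate 2. TRIM29 was 1.69 times as high (1.39 to 2.06), but the GFP libraries differed by 1.68 times in the same direction (0.896 to 3.33). CALML3 was 1.22 times as high (1.15 to 1.30), while the GFP libraries differed in the other direction, with a ratio of 0.267 (0.0923 to 0.697). SFN and BNC1 went the other way, with ratios of 0.519 (0.467 to 0.576) and 0.339 (0.185 to 0.604), while SFN had a ratio of 1.01 in the GFP libraries. With 1 library per vector these ratios have no replicate check, and the intervals cover counting error only. In the induced libraries, which share a vector and had TP63 within a ratio of 1.02, the counting intervals of CALML3, CLCA2, TRIM29 and SFN all included equal levels.

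**Figure D3:**
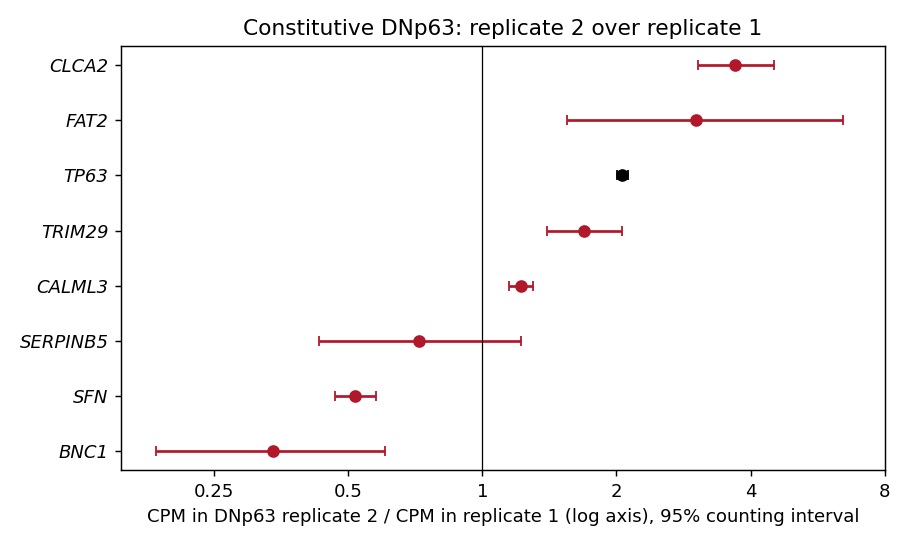
Ratio of the CPM in constitutive DNp63 replicate 2 to that in replicate 1 (horizontal log axis) with its 95% counting interval, for TP63 (black) and the 7 marker genes with counts in both libraries (red). CLCA2 sits at 3.69 and BNC1 at 0.339, on opposite sides of equal levels.

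The relatives of the markers are read against the 4.17% of all tested genes called higher and 3.99% called lower with constitutive DNp63, so that few calls are no result about them. Of 4 tested relatives of CALML3, 8 of TRIM29, 4 of SERPINB5, 4 of FAT2 and 6 of SFN, none was called in the averaged, constitutive or induced comparison. CALM3, a calmodulin gene and the most abundant relative of CALML3, had a constitutive log2 fold change of −0.79 ± 0.29 (edgeR adjusted p = 0.126). YWHAE, the most abundant other 14-3-3 gene, had −0.23 ± 0.17 (0.47), FAT1, another giant protocadherin, 0.80 ± 0.25 (0.0818), TRIM16 0.18 ± 0.28 (0.765) and SERPINB6 0.71 ± 0.31 (0.199). All 4 tested relatives of SERPINB5 had positive values in both systems. SERPINB2 among them passed the filter only in the constitutive DNp63 libraries, so its rise there adds no support. Its induced value rested on 4 counts uninduced and 7 induced. The relatives of CLCA2 had no counts, and BNC2 had too few for the test. Among the connexins, 4 relatives of GJB5 were tested. GJA1, the widely expressed connexin 43, stood at 75.4 and 84.1 CPM in GFP cells and 896 and 425 CPM in constitutive DNp63 cells, a log2 fold change of 3.05 ± 0.32 (adjusted p = 0.000364). Its induced value was 0.36 ± 0.30 (0.979). GJB7 fell in the averaged comparison by 1.03 on the log2 scale (SE 0.24, adjusted p = 0.0337), a call lost without any 1 of the inducible libraries (0.12 to 0.16) and without GFP replicate 1 (0.059) or 2 (0.0522) or DNp63 replicate 2 (0.0526).

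**Figure D4:**
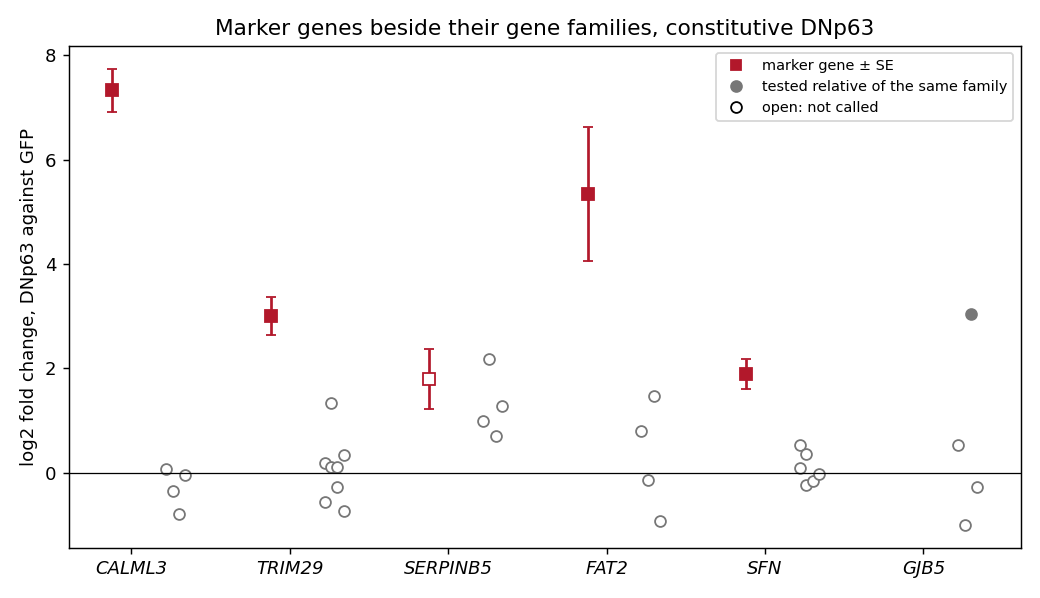
Log2 fold change with constitutive DNp63 against GFP (vertical axis) of each marker gene with its SE (red squares) and of the tested members of its family (grey circles), with open symbols not called; CLCA2 and BNC1 have no tested relative and GJB5 was not tested. GJA1, at 3.05, is the only relative called.

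Neighbouring genes were compared next. The 3 nearest protein-coding genes on each side of the 8 markers were taken by GENCODE 29 order, passing over genes whose symbol was not among the 26760 counted. Of these 48, 28 were tested. With constitutive DNp63 1 was called higher, a share no larger than the 4.17% of all tested genes called higher, and none was called when induced. That 1 was SH3GL3, next to BNC1, with a log2 fold change of 1.97 (edgeR adjusted p = 0.014), chosen after its values were seen and not called without GFP replicate 2 (0.117) or in the fit on the constitutive system alone (0.0911). CLCA1 and CLCA4, which lie next to CLCA2, had no count in any library.

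Among other squamous and basal epithelial genes, more rose than fell with constitutive DNp63. Of 56 listed genes 33 were tested. With constitutive DNp63 14 rose, 2 fell and 17 did not pass, where 4.17% and 3.99% of all tested genes were called higher and lower. The median log2 value was 0.88 against 0.01 over all tested genes. KRT5, KRT6C, KRT16 and PKP1 passed the filter only in the constitutive DNp63 libraries and had to be higher there to enter. Their values add no support to the count of rises or to the median. In induced cells 1 of 33 rose and none fell, where 0.236% of all tested genes were called higher, with a median of 0.33 against 0.00. Without any 1 of the inducible libraries edgeR called none, with 4 higher at an unadjusted p below 0.05 in each case, and in the fit on the inducible system alone 5 of 29 rose and 1 fell. KRT6A, a stress keratin of stratified epithelia whose reads can be divided with KRT6B and KRT6C, had 6.75 ± 0.36 with constitutive DNp63 (edgeR adjusted p = 6.63e-06) and 2.42 ± 0.32 when induced (0.0144). The induced call of KRT6A was lost without uninduced replicate 1 (0.266) or 2 (0.293) or induced replicate 1 (0.279) or 2 (0.187). The epithelial transcription factor genes OVOL1 (2.95 ± 0.41) and KLF5 (1.85 ± 0.25) and the hemidesmosome integrin gene ITGB4 (2.62 ± 0.35) rose with constitutive DNp63. The falls within the list, which does not hold SOX2, were in FGFBP1, which encodes a secreted carrier of FGF ligands (−1.93 ± 0.28), and GRHL3, a transcription factor of epidermal differentiation (−2.61 ± 0.55; lost without GFP replicate 2, 0.0949, or DNp63 replicate 2, 0.0592). The count of rises was 5 without GFP replicate 2 and 8 in the fit on the constitutive system alone.

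SFN and SERPINB5 are also known as genes that p53 activates. Of 19 other p53 target genes, none rose and 5 fell with constitutive DNp63, where 3.99% of all tested genes were called lower. The number of falls was 1 to 4 with 1 library left out, lowest without induced replicate 1 or 2 (1 each) and uninduced replicate 1 or 2 (2 each). It was 3 without GFP replicate 1, where 2 of these genes rose, and 0 in the edgeR fit on the constitutive system alone, where 8 were lower at an unadjusted p below 0.05. DESeq2 over all libraries called 6 falls. TP53I3, a quinone oxidoreductase gene, had −1.37 ± 0.27 (edgeR adjusted p = 0.0115, and 0.0757 in that fit), CDKN1A, the cell cycle inhibitor p21, −0.35 ± 0.29 (0.53), and MDM2, which degrades p53, −1.18 ± 0.28 (0.0287, and 0.132 in that fit). The MDM2 call was lost, at 0.056 to 0.116, without GFP replicate 1, DNp63 replicate 2 or any 1 of the 4 inducible libraries. MDM2 was also the 1 gene called between the controls, at 199 and 117 CPM in GFP cells and 27.0 and 25.9 CPM in uninduced cells (log2 difference −2.58 ± 0.30, adjusted p = 0.0418). It was not called there without uninduced replicate 1 (0.596) or 2 (1) or induced replicate 1 (0.204) or 2 (0.2). The median of the list between the controls was −1.19, against −0.01 over all tested genes, with GFP as the higher control, and the part of this baseline in the falls was not tested. In induced cells the edgeR fit over all 8 libraries called none of the 19, with 3 lower at an unadjusted p below 0.05. The edgeR fit on the inducible system alone called 5 of the 19 lower, where 336 of 11991 tested genes were. The edgeR fit over all 8 libraries with no filter called 4 lower, where 89 of 18159 were. AEN, a nuclease gene, was called lower in the averaged comparison alone (−1.11 ± 0.26, adjusted p = 0.0331), and not without GFP replicate 1 (0.0667) or any 1 of the inducible libraries (0.101 to 0.187).

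Patterns over the 8 libraries were compared as the root mean square difference of centred log2 CPM, among 9766 genes. Genes with clone or locus names were left out of these candidates. The gene nearest to TRIM29 was SLC7A8, an amino acid transporter, at 0.315, followed by OVOL1 at 0.409. SLC7A8 had log2 fold changes of 3.41 ± 0.20 constitutive and 2.24 ± 0.18 induced. The nearest to CALML3 were AK8, an adenylate kinase gene of cilia, at 0.521, and UNC5B, a netrin receptor, at 0.746. The nearest to CLCA2 was KRT6A at 0.775, to SERPINB5 the stress protein gene NUPR1 at 0.435, and to FAT2 the axon guidance receptor gene ROBO2 at 0.480. LAMP3, a lysosomal membrane protein gene, was nearest to BNC1 at 0.468 and PPIC, a cyclophilin gene, to SFN at 0.192. Second nearest were AK8 to CLCA2 at 1.00, EPHA2 to SERPINB5 at 0.488 and HMCN1 to FAT2 at 0.496. They were SLC2A3 to BNC1 at 0.564 and UNC119 to SFN at 0.204. For SERPINB5, FAT2 and BNC1 the pattern rests on few counts.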

How the data were processed

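Gene counts of 8 libraries of the cell line LK2 were analysed, in 4 groups of 2 taken from the labels. Per the labels' protocols, polyA-selected directional libraries were read from both ends for 38 bp. The authors deposited raw, unscaled counts for each gene and library. The submitters' processing notes name TopHat2 2.1, SAMtools, HTSeq, DESeq2 and the hg19 genome. No source used here gives the annotation, strand setting or filters. Symbols are those of the count table.

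Genes were kept by filterByExpr on the 4 groups (minimum count 10), TMM scaling was applied, and a mean per group was fitted over all 8 libraries with edgeR 4.0.16 (quasi-likelihood, legacy estimates, R 4.3.3). Tests were two-sided, with Benjamini-Hochberg adjustment over 12303 genes and calls at an adjusted p below 0.05. SEs came from the same fit. The script was tested on simulated counts. Groups with 0 to 3 counts are compared by ratios of summed counts with 95% exact intervals, or against a floor of 3 counts over the group, covering counting error only. Totals of 2758158 to 10372248 counts limit precision for weakly expressed genes. Log2 CPM for patterns used a prior count of 2.

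The 8 genes and all lists (relatives, other squamous genes, p53 targets, markers of other cells) were chosen with earlier results of these data known. Named by rule were the 8 genes and TP63, per family the most abundant tested relative and called ones, the 6 squamous genes with the smallest averaged p and falls, CDKN1A, MDM2 and called p53 targets, called markers of other cells, and the 2 genes nearest in pattern per tested gene, with a mean of at least 5 CPM. Alternatives were other scaling, DESeq2 1.42.0, other filters, robust or non-legacy spread (the latter added after seeing the data), each library left out, a replicate block and each system alone. Transcript stretches and gene order came from GENCODE 29 (GRCh38), promoter sequences from RefSeq.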

Additional observations from a re-analysis of the deposited data

Results flagged for a closer look

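For CALML3 and TP63 the effect of induced DNp63 was tested as different from that of constitutive DNp63. The log2 difference (induced minus constitutive) was −3.45 ± 0.55 for CALML3 (edgeR adjusted p = 0.0301) and −5.99 ± 0.58 for TP63 (0.00378). Without any 1 of the inducible libraries CALML3 was not called (0.17 to 0.242). The TP63 call was lost without induced replicate 1 (0.11) or 2 (0.0734). Among the other named genes the same difference passed for KRT6A (−4.33, adjusted p = 0.00554), GJA1 (−2.69, 0.0305), AK8 (−6.00, 0.027), UNC5B (−3.08, 0.0374) and HMCN1 (−3.05, 0.0374). These 5 calls were lost without induced replicate 1 (0.112 to 0.272) or 2 (0.0963 to 0.212) and without uninduced replicate 2 (0.117 to 0.294). AK8, GJA1 and HMCN1 lost theirs also without GFP replicate 2 (0.0705 to 0.0966), and all but KRT6A without uninduced replicate 1 (0.126 to 0.179). HMCN1 was named as the gene second nearest in pattern to FAT2, and UNC5B as the second nearest to CALML3.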

How the results depend on the processing

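For the 7 tested marker genes, 566 of 626 values over 6 comparisons and 16 other settings kept their direction and their side of the threshold, 36 kept the direction but lost the call, 16 gained a call and 8 changed sign. The sign changes were in values that were not called, all but 1 of them in FAT2 and BNC1: the induced value of BNC1 was 0.015 with the replicate block, 2.86 without uninduced replicate 2 and 0.61 without induced replicate 1; that of FAT2 was −0.20 without uninduced replicate 1 and −0.10 without induced replicate 1. With 1 library left out, the induced values of BNC1 and FAT2 reached from −3.61 to 2.86 and from −0.20 to 4.59. The difference between the controls (uninduced minus GFP) was 3.68 for BNC1 without GFP replicate 1, −2.69 for FAT2 without uninduced replicate 2 and −0.56 for CALML3 without GFP replicate 2, within leave-one-out ranges of −4.18 to 3.68, −2.69 to 4.41 and −0.56 to 1.33. No control difference was defined for CLCA2 without GFP replicate 2, where both groups had no counts.

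Counts of called genes were 697 (averaged), 1004 (constitutive), 35 (induced), 67 (difference between systems), 1 (controls) and 1373 (constitutive against induced level). With no filter they were 1372, 1791, 242, 558, 245 and 2306. DESeq2 gave 110 induced, 265 for the difference and 57 for the controls. The replicate block, whose numbers the labels do not tie to a shared batch, gave 87, 270 and 19. Same-numbered GFP and DNp63 libraries, which share a vector number, deviated together with a correlation of 0.22 across genes, and the inducible ones with −0.03. A minimum count of 30 gave 0 for the controls by edgeR (1012 at an unadjusted p below 0.05), and fits on a single system gave 275 constitutive and 771 induced. With 1 library left out the counts ranged from 225 to 1113, 452 to 1438, 2 to 104, 0 to 446, 0 to 43 and 31 to 2118 in the same order. The 0 counts of edgeR came without induced replicate 1 or 2 for the difference (919 and 1303 genes at an unadjusted p below 0.05) and without any 1 inducible library for the controls (438 to 930). The cause of these shifts was not tested.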
